A study of Caenorhabditis elegans with 12 samples.

Results

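Worms carrying the ife-1(bn127) mutation and wild-type N2 Caenorhabditis elegans were compared through their major sperm protein (msp) and sperm-specific family (ssp) genes, both of which encode proteins built on the major sperm protein domain. Members were the probe sets annotated with exactly 1 gene whose symbol starts msp- or ssp-, with the brightest probe set kept where a gene had more than 1. This gave 30 genes, 23 msp and 7 ssp, of the 10334 genes with a probe set of their own among those deposited. The 7 ssp genes were ssp-10, ssp-16, ssp-19, ssp-31, ssp-33, ssp-34 and ssp-37. The rule itself used gene names and mean signal over all 12 arrays, and no difference between genotypes or fractions. The families were, however, chosen with earlier results of these data known.

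The 12 Affymetrix arrays fall into 4 groups of 3: ife-1(bn127) polysomal RNA, ife-1(bn127) nonpolysomal RNA, wild-type polysomal RNA and wild-type nonpolysomal RNA. All worms were a mixture of adults, larvae and eggs, grown for a final passage of 3 days at 20 °C on plates of OP50 bacteria with egg yolk. Lysates were spun through 10 to 45% sucrose, and RNA sedimenting below 80S (nonpolysomal, NP) was separated from RNA above 80S (polysomal, P). Each genotype was grown and harvested 3 times, an ife-1 culture and a wild-type culture in each of 3 growth sets.

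Nematode sperm crawl instead of swimming, and polymerised MSP, not actin, drives the movement. MSP is made in large amounts in spermatocytes from many near-identical genes, is packed into fibrous bodies, and later leaves the sperm as a signal that triggers oocyte maturation and contraction of the gonadal sheath. The ssp genes encode shorter single-domain relatives that are also made in sperm. IFE-1 is a germline form of eIF4E, the protein that binds the cap of an mRNA and brings it to the ribosome, and worms without it are known for defects in sperm formation. The share of an mRNA found on polysomes is a common measure of how actively it is translated.

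The ife-1 probe set read 62.3 to 177.7 on the 6 ife-1 arrays, none of which called it present, against 3566.7 to 5997.3 on the 6 wild-type arrays, all of which did. Array medians of the deposited signals were 367.3 to 428.6. Marker genes of the other tissues of a whole worm were detected: all 8 oocyte and all 5 cuticle markers were present on all 12 arrays, as were 4 of 5 muscle, 5 of 6 intestinal and 4 of 6 neuronal markers. Of 5 measured sperm markers, only gsp-3 and gsp-4, sperm protein phosphatases, were present on all 12, and spe-9, spe-11 and fer-1 were called present on 8 to 10. Summed signal of the 5 sperm markers was 5667 to 5761 in the ife-1 cultures, against 14340, 3005 and 13870 in wild-type cultures 1, 2 and 3, so the second wild-type culture stood apart from the other wild-type cultures. Summed signal of the 8 oocyte markers was 81770 to 108700 in the ife-1 cultures and 45520 to 49640 in the wild-type cultures. Most of the summed sperm marker signal came from gsp-3 and gsp-4, and spe-9 did not follow it: its log2 combined level was 7.86, 7.54 and 7.51 in the ife-1 cultures, against 7.98, 7.87 and 8.15 in wild-type cultures 1, 2 and 3. In combined level (limma, adjusted p under 0.05), 2 of 5 cuticle, 4 of 6 neuronal and 2 of 5 muscle markers were lower in ife-1 worms and none higher, and of 6 intestinal markers 3 were higher and 2 lower. The largest of these differences were -2.33 for rol-6 and -1.77 for dpy-7, both cuticle genes. Over all probe sets, 18.5% were lower and 21.0% higher in combined level at the same threshold. Because the worms were lysed whole, fewer sperm-forming cells and less msp RNA per cell cannot be told apart.

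No filter on low signal was added here, but the deposited probe sets had already been selected by the authors on detection, under the label present in all replicates. An msp or ssp gene that failed that selection could not become a member, and each percentage of all probe sets refers to the selected probe sets. Of the 30 members, 28 were called present on all 12 arrays, ssp-33 on 10 and ssp-19 on 9. The descriptions in the annotation match the RefSeq locus of each of the 30 genes. The 23 msp genes lie on chromosomes II and IV. The ssp genes lie on chromosome I (ssp-16, ssp-19, ssp-31 and ssp-37), chromosome IV (ssp-10 and ssp-34) and chromosome V (ssp-33). The probe set names of all 23 msp genes and of 4 ssp genes end in _x_at, the manufacturer's mark for probes that may also bind similar transcripts, while ssp-16, ssp-19 and ssp-34 have unmarked probe sets. The 23 msp genes point to only 13 different protein entries: msp-19, msp-31, msp-40, msp-45, msp-50, msp-53, msp-59, msp-64, msp-65 and msp-142 all share 1 entry, and msp-36 and msp-76 share another. An msp value below may therefore include signal from sister genes, and the msp genes are not independent of each other.

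Polysome association was taken per culture as log2(P/NP), the log2 signal of the polysomal array minus that of the nonpolysomal array after quantile normalization of all 12. Normalization gives both fractions the same overall distribution, so a value of 0 means the same rank in both fractions and not equal numbers of molecules. Mean association was below that of wild type in ife-1 worms for every msp gene, none at an adjusted p under 0.05, and on both sides of it for the ssp genes. The median over the 23 msp genes was -0.17, 0.13 and -0.10 in ife-1 cultures 1, 2 and 3, against 0.65, 0.84 and 0.68 in wild-type cultures 1, 2 and 3. As a share P/(P+NP), the msp medians were 47.0, 52.3 and 48.3% in the ife-1 cultures and 61.1, 64.1 and 61.6% in the wild-type cultures. The median over the 7 ssp genes was -0.08, -0.15 and 0.14 in the ife-1 cultures, against 0.06, 0.00 and -0.01 in the wild-type cultures. The ssp genes went both ways around these medians, from -0.38 in ssp-34 to 0.76 in ssp-37 as means of the ife-1 cultures.

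**Figure D1:**
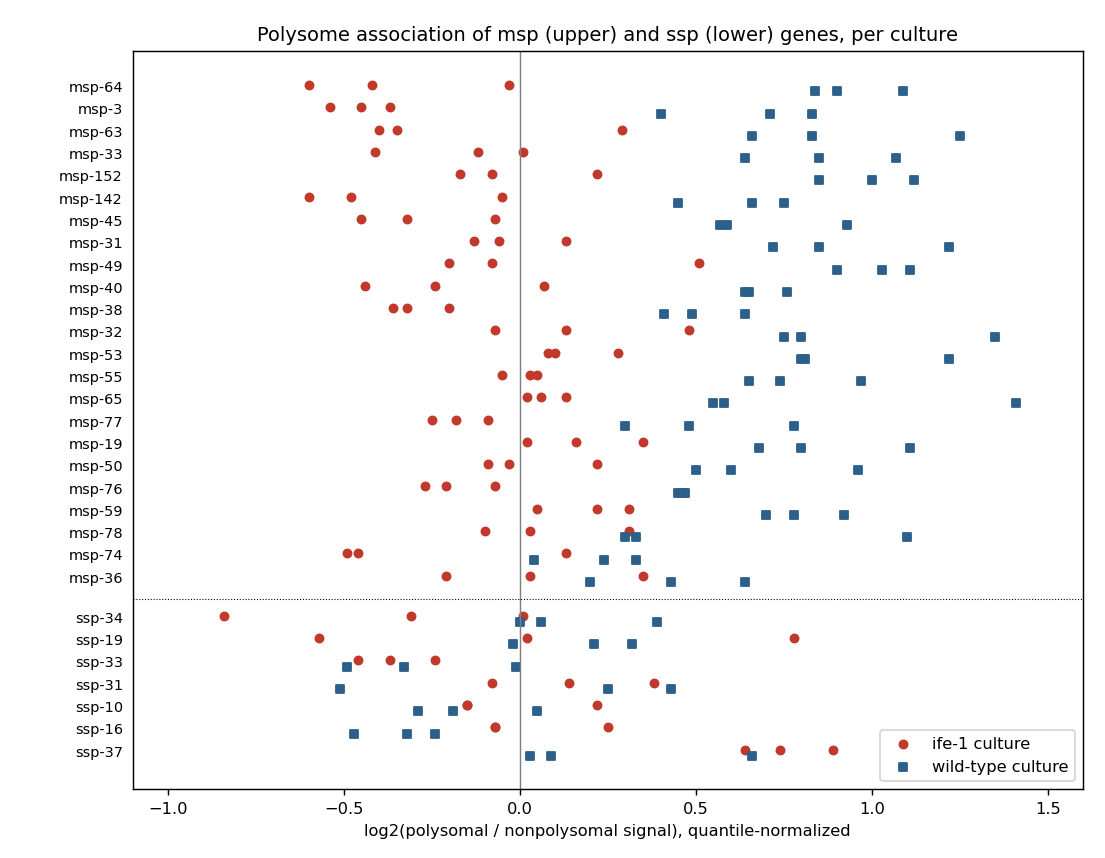
Polysome association of each member by culture. The x axis is log2(P/NP) on quantile-normalized signals, red circles are the 3 ife-1 cultures, blue squares the 3 wild-type cultures, and genes run from the most negative to the most positive difference within each family; in 20 of 23 msp genes all red circles lie left of all blue squares, and in none of the 7 ssp genes.

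The difference in association, ife-1 minus wild type, was below 0 for 23 of 23 msp genes, with a median of -0.79 and a range from -1.29 to -0.37. For the 7 ssp genes it ranged from -0.53 to 0.50 with a median of 0.09, and the median over all 13333 tested probe sets was 0.03. All ife-1 cultures lay below all wild-type cultures in 20 msp genes and no ssp gene, against 12.4% of all probe sets. The exceptions among the msp genes were msp-36, msp-74 and msp-78. In limma's moderated test, 20 msp genes and no ssp gene were lower at an unadjusted p under 0.05, against 10.1% of all probe sets. No member was higher at that threshold, against 10.4% of all probe sets. The count of msp genes was 11 on the deposited signals, against 7.07% of all probe sets, 14 with array medians equalised, against 8.87%, and 1 when the fractions of a culture were not paired, against 5.84%. Of the other tissues' markers, 3 of 5 muscle markers were also lower at an unadjusted p under 0.05, among them myo-3 at -0.99 and unc-54 at -0.76, both muscle myosins, and none passed after adjustment. Their part in the msp values was not tested. After Benjamini-Hochberg adjustment over all probe sets, no member passed 0.05, where 0.128% of all probe sets passed in either direction, and the lowest adjusted p of a member was 0.061 for msp-64. The difference between the 2 families was not itself tested.

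Of all members, msp-64 had the most negative difference in association. Its log2(P/NP) was -0.60, -0.03 and -0.42 in the ife-1 cultures, against 0.90, 0.84 and 1.09 in the wild-type cultures, and the groups did not overlap. The difference was -1.29 ± 0.22 (SE, n = 3 cultures each; limma, unadjusted p = 0.000307, adjusted p = 0.061). Its polysomal share averaged 44 ± 5.0% in ife-1 worms and 65.7 ± 2.0% in wild type (SD, n = 3 each).

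For msp-3, the values were -0.54, -0.37 and -0.45 in the ife-1 cultures and 0.40, 0.83 and 0.71 in the wild-type cultures. All 3 ife-1 values were on the nonpolysomal side, all 3 wild-type values on the polysomal side, and the difference was -1.10 ± 0.20 (limma, adjusted p = 0.0639). Next in this order were msp-63 and msp-33. The msp-63 values were -0.35, 0.29 and -0.40 in the ife-1 cultures and 1.25, 0.66 and 0.83 in the wild-type cultures, a difference of -1.07 ± 0.27 (limma, adjusted p = 0.0933). For msp-33 they were -0.12, 0.01 and -0.41 in the ife-1 cultures and 0.85, 0.64 and 1.07 in the wild-type cultures, a difference of -1.03 ± 0.22 (limma, adjusted p = 0.0753). In both genes the second ife-1 culture was the highest of the ife-1 cultures and still lay below every wild-type culture.

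The msp differences nearest to 0 were those of msp-36, msp-74 and msp-78. The msp-36 values were -0.21, 0.35 and 0.03 in the ife-1 cultures and 0.43, 0.64 and 0.20 in the wild-type cultures, with 1 ife-1 culture inside the wild-type range. Its difference of -0.37 ± 0.23 had an adjusted p of 0.394 (limma). The msp-74 values were -0.49, -0.46 and 0.13 in the ife-1 cultures and 0.04, 0.24 and 0.33 in the wild-type cultures, a difference of -0.48 ± 0.24 (limma, adjusted p = 0.294). The third ife-1 culture of msp-74 lay among the wild-type values. msp-78, the brightest msp probe set, gave 0.03, 0.31 and -0.10 in the ife-1 cultures and 0.30, 1.10 and 0.33 in the wild-type cultures, with the second ife-1 culture just above the lowest wild-type culture.

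The most positive differences in association were those of ssp-37 and ssp-16. For ssp-37 the values were 0.64, 0.74 and 0.89 in the ife-1 cultures and 0.09, 0.66 and 0.03 in the wild-type cultures, so wild-type culture 2 lay inside the ife-1 range. The difference was 0.50 ± 0.23 (limma, adjusted p = 0.270). For ssp-16 the values were -0.07, -0.07 and 0.25 in the ife-1 cultures and -0.32, -0.47 and -0.24 in the wild-type cultures. Every ife-1 culture lay above every wild-type culture in ssp-16, in the opposite direction to the msp genes, and the difference was 0.38 ± 0.20 (limma, adjusted p = 0.321). The most negative difference among the ssp genes was that of ssp-34, at -0.31, -0.84 and 0.01 in the ife-1 cultures and 0.06, 0.00 and 0.39 in the wild-type cultures, with an adjusted p of 0.297 (limma). The differences of the other ssp genes were 0.12 for ssp-10, 0.09 for ssp-31, -0.08 for ssp-33 and -0.09 for ssp-19, each smaller than its SE of 0.21 to 0.33.

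The calls on the msp genes moved with the treatment of low signals. With an offset of 50 added to every signal, which shrinks the spread of dim probe sets, 13 msp genes were lower at an adjusted p under 0.05, against 2.62% of all probe sets. On the brighter 6666 probe sets alone 15 msp genes were lower, against 3.24%, and on the 9760 probe sets called present on all 12 arrays 10 msp genes were, against 1.81%. The msp values themselves barely differ between these settings, with medians of -0.78 to -0.79.

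Within each genotype, a probe set was called polysomal or nonpolysomal where limma found log2(P/NP) different from 0. In ife-1 worms, ssp-37 alone among the members was called polysomal, against 22.7% of all probe sets, and msp-3 alone was called nonpolysomal, against 26.1%. The other 22 msp genes lay between -0.38 and 0.19 on the log2(P/NP) scale in ife-1 worms, with no call. In wild type, 21 members were called polysomal, all of them msp genes, against 26.5% of all probe sets, and none was called nonpolysomal, against 29.3%. The highest wild-type association was 1.01 ± 0.17 (SE) for msp-49 and the lowest adjusted p was 0.000688 for msp-152, at 0.99 ± 0.15. The msp genes not called were msp-36, at 0.42 ± 0.16 (limma, adjusted p = 0.0527), and msp-74, at 0.20 ± 0.17 (limma, adjusted p = 0.323). The 7 ssp genes lay between -0.34 for ssp-16 and 0.26 for ssp-37 in wild type.

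These calls against 0 depended on how the arrays were scaled to each other. On the deposited signals 7 msp genes were called polysomal in wild type, against 27.8% of all probe sets, and with array medians equalised 4 msp genes were, against 23.4%. With quantile normalization done separately within each fraction 10 msp genes were called, against 29.7%. With the bacterial controls as the scale 17 msp genes and 4 ssp genes were called polysomal, against 46.2% of all probe sets, and the ssp median in wild type was 0.64, so the calls were then not limited to msp genes. In ife-1 worms, 10 msp genes were called nonpolysomal with array medians equalised, against 4139 of 13333 probe sets, and all 23 lay below 0. With quantile normalization within each fraction 5 msp genes were called nonpolysomal in ife-1 worms, against 3152 of 13333. The deposited signals gave msp medians of -0.33, -0.08 and -0.26 in the ife-1 cultures, against 0.00, 0.69 and 0.28 in the wild-type cultures, so the first wild-type culture then sat at 0. The sign of the genotype difference did not depend on the scaling: it was below 0 for 23 of 23 msp genes on the deposited signals, with medians equalised, with quantile normalization within fractions and with bacterial spike-in controls as the scale. With the bacterial controls the median of all probe sets was itself below 0, at -0.47. The deposited, median-equalised and bacterial-control scales differ only by a constant per array and are not separate checks. On each of these scales the msp median lay 0.62 below that of all probe sets, and 0.77 below it with quantile normalization within fractions. On the deposited signals the cultures of 14 msp genes did not overlap, against 9.49% of all probe sets. The ssp median, by contrast, took both signs, at 0.17 on the deposited signals and -0.41 with the bacterial controls, while that of all probe sets was 0.10 and -0.47.

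The combined level, log2 of P plus NP, was lower in ife-1 worms for all 30 members as a difference of means, but this rested on 2 of the 3 wild-type cultures. Wild-type cultures 1 and 3 lay above all ife-1 cultures in 30 of 30 members, against 30.7% of all probe sets. Wild-type culture 2 lay at or below the highest ife-1 culture in 29 of 30, against 61.9% of all probe sets, and below every ife-1 culture in 20, against 43.6%. Over the members, the log2 level of wild-type culture 2 minus the mean of wild-type cultures 1 and 3 had a median of -1.55, a 2.93-fold difference, with 2.71-fold for msp genes and 5.59-fold for ssp genes. The median over all probe sets for the same contrast was 0.06.

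**Figure D2:**
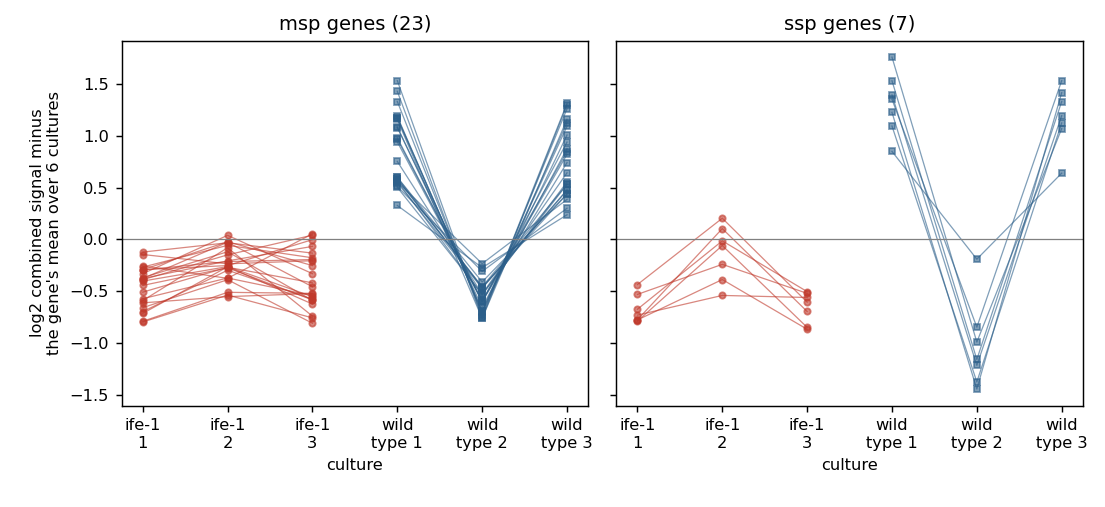
Combined level of each member by culture. The y axis is log2(P + NP) minus the gene's own mean over the 6 cultures, each thin line joins the values of 1 gene within a genotype (the cultures have no order), red circles are ife-1 and blue squares wild type; wild-type cultures 1 and 3 lie above every ife-1 culture in all 30 members, and wild-type culture 2 does so only in ssp-37.

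With all 6 cultures, the difference in combined level had a median of -0.81 over the 30 members, -0.72 over the msp genes and -0.91 over the ssp genes, against 0.06 over all probe sets. At an adjusted p under 0.05, ssp-37 alone was lower, against 18.5% of all probe sets, and no member was higher, against 21.0%. At an unadjusted p under 0.05, msp-63, msp-64, msp-142, ssp-10 and ssp-37 were lower, against 22.8% of all probe sets, so the members' counts lie near or under the background. Without wild-type culture 2, 29 of 30 members were lower at an adjusted p under 0.05, against 22.1% of all probe sets, the exception being msp-78. Leaving out any other single culture left 0 calls among the members. Culture 2 stands out by its low level of these same genes, so counts and p values without it, here and below, are descriptions and add no support. Of the sperm markers, gsp-3 and gsp-4 were likewise lowest in wild-type culture 2 and highest in wild-type cultures 1 and 3, while spe-9 was not. Levels of spe-11 and fer-1 by culture are not given here. Some of the cuticle, neuronal and muscle markers were also lower in ife-1 worms, as counted above, and the part of any of these tissues in the members' levels was not tested.

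ssp-37 had log2 levels of 9.62, 9.91 and 9.63 in the ife-1 cultures and 11, 9.96 and 10.79 in the wild-type cultures, with no overlap. The difference was -0.86 ± 0.27 (SE; limma, adjusted p = 0.0394), which became an adjusted p of 0.0648 with the growth set as a block. Without wild-type culture 2 it was -1.18 ± 0.18 (limma, adjusted p = 0.00132), and leaving out any other single culture ended the call. The most negative difference was that of msp-142, the dimmest msp probe set, with log2 levels of 11.89, 12.15 and 11.93 in the ife-1 cultures and 14.22, 11.94 and 14 in the wild-type cultures. Wild-type culture 2 lay inside the ife-1 range, and the difference was -1.40 ± 0.54 (limma, adjusted p = 0.0731). Its deposited polysomal signals were 1543.7, 2250.5 and 1692.9 in the ife-1 cultures and 10940, 2435.5 and 9644.5 in the wild-type cultures.

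ssp-10, the brightest ssp probe set, had log2 levels of 10.77, 11.16 and 10.68 in the ife-1 cultures and 12.90, 10.70 and 13.08 in the wild-type cultures. The difference was -1.36 ± 0.58 with all cultures (limma, adjusted p = 0.0952) and -2.12 ± 0.20 without wild-type culture 2 (limma, adjusted p = 0.000154). msp-64 followed at 12.82, 13.09 and 12.67 in the ife-1 cultures and 14.81, 12.75 and 14.74 in the wild-type cultures, a difference of -1.24 ± 0.51. In both genes wild-type culture 2 lay within the ife-1 range. The dimmest ssp probe set was that of ssp-19, with 8.05, 8.71 and 8.22 in the ife-1 cultures and 9.95, 7.28 and 10.14 in the wild-type cultures. Its wild-type culture 2 was the lowest of all 6.

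The differences in level nearest to 0 were those of msp-78, msp-36 and msp-65. msp-78 had 14.93, 15.02 and 14.92 in the ife-1 cultures and 15.38, 14.78 and 15.29 in the wild-type cultures, a difference of -0.20 ± 0.19 (limma, adjusted p = 0.437). The differences were -0.34 ± 0.29 for msp-36 and -0.34 ± 0.24 for msp-65. The size of the difference followed the brightness of the probe set. It ran from -0.58 to -0.20 in the 11 brightest msp probe sets, which are the 10 of chromosome IV and that of msp-31, and from -1.40 to -0.72 in the other 12. Across the 23 msp genes the correlation of the difference in combined level with mean log2 signal was 0.95, against 0.49 for the difference in association, given as a description because the genes share cultures and may share signal. Whether the brightest probe sets were near the upper end of the range the scanner records was not tested.

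Wild-type culture 2 had msp levels within or below the range of the ife-1 cultures. Its log2(P/NP) lay above all 3 ife-1 cultures in 23 of 23 msp genes, against 33.8% of all probe sets on normalized signals and 32.3% on deposited signals. Among the 7 ssp genes it did so in none on normalized signals and in 1 on deposited signals. For wild-type culture 1 the count of msp genes was 21 on normalized signals, against 30.0% of all probe sets, and 14 on deposited signals, against 24.6%. For wild-type culture 3 it was 22 on normalized signals, against 30.9%, and 21 on deposited signals, against 23.2%. Without wild-type culture 2, the median msp association difference was -0.74, close to the -0.79 with it, and the ssp median was -0.07.

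**Figure D3:**
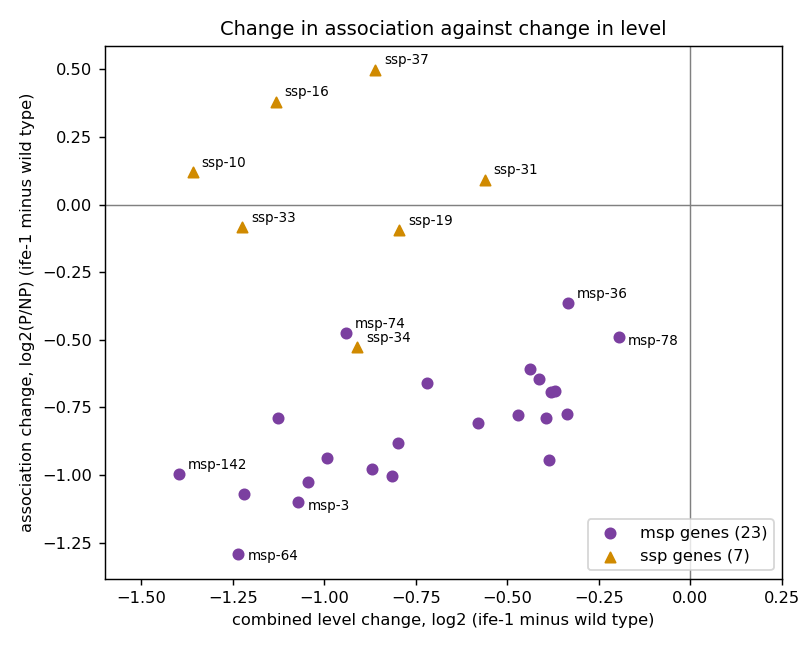
Association change against combined level change for the 30 members. Both axes are log2 differences of ife-1 minus wild type (means of 3 cultures each), purple circles are msp and gold triangles ssp genes; all 30 lie left of 0 in level, the 23 msp genes lie between -1.29 and -0.37 in association and the 7 ssp genes between -0.53 and 0.50.

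Fraction by fraction, the mean msp signal lay further below wild type on polysomes than off them, while the ssp genes lay below wild type in both fractions. The msp genes had a median difference of -1.01 in polysomal and -0.23 in nonpolysomal RNA, and the polysomal difference was the lower in 23 of 23. For the ssp genes the medians were -0.93 in polysomal and -1.15 in nonpolysomal RNA, and the polysomal difference was the lower in 3 of 7. Over all probe sets the medians were 0.08 and 0.07, and the polysomal difference was the lower in 6322 of 13333. The polysomal minus the nonpolysomal difference is the difference in association, so these counts restate its sign and add no further result. The nonpolysomal difference was above 0 for 5 msp genes, with the highest at 0.16. The nonpolysomal msp median depended on the scaling, at -0.59 on the deposited signals, -0.57 with array medians equalised and -0.02 with the bacterial controls, where 0, 0 and 10 msp genes lay above 0. It also depended on single wild-type cultures, at 0.03 without culture 1, -0.77 without culture 2 and -0.02 without culture 3, with 14, 0 and 11 msp genes above 0. The polysomal msp median was -1.04 on the deposited signals, -1.08 with array medians equalised and -1.05 with the bacterial controls, and it was -0.76 without wild-type culture 1, -1.44 without culture 2 and -0.84 without culture 3.

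**Figure D4:**
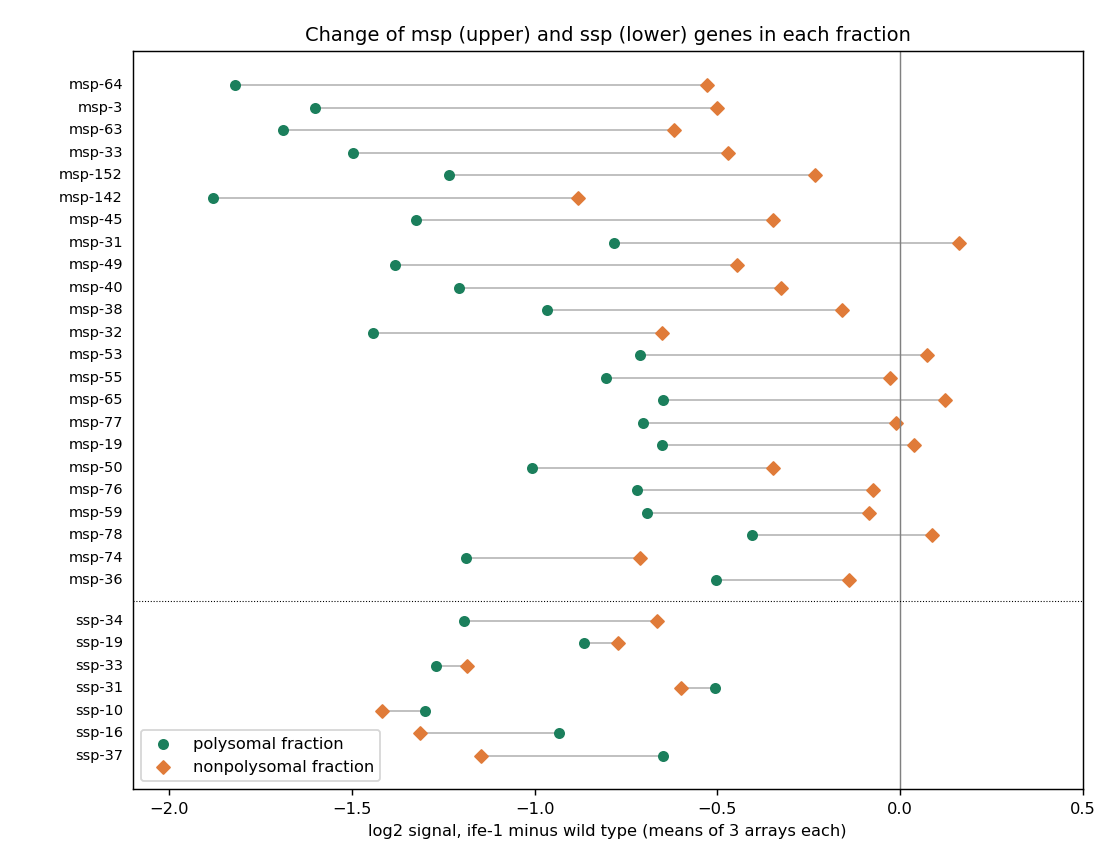
Change of each member within each fraction. Which of the 2 values of a gene is the lower is set by the sign of its association difference. The x axis is the log2 signal difference of ife-1 minus wild type (means of 3 arrays each), green circles are polysomal and orange diamonds nonpolysomal RNA, and grey lines join the 2 values of a gene; the green circle is the lower in all 23 msp genes and in 3 of the 7 ssp genes.

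In polysomal RNA 6 members were lower at an adjusted p under 0.05, all msp genes, against 15.8% of all probe sets. They were msp-3, msp-33, msp-55, msp-63, msp-64 and msp-142. The largest of these falls was that of msp-142, at -1.88 ± 0.63 (SE; limma, adjusted p = 0.0357), and the lowest adjusted p was that of msp-55, at -0.81 ± 0.25 (limma, adjusted p = 0.0271). The deposited polysomal signals of msp-55 were 9735.9, 11184 and 10585 in the ife-1 cultures and 25401, 14198 and 23528 in the wild-type cultures, with no overlap. With the growth set as a block, msp-55 kept its call at an adjusted p of 0.0446 and the other 5 had adjusted p values from 0.0516 to 0.0706 (limma). Without wild-type culture 2, 30 of 30 members were lower in polysomal RNA, against 20.0% of all probe sets, and leaving out any other single culture left 0 calls among the members.

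In nonpolysomal RNA ssp-37 alone was lower, at -1.15 ± 0.33 (limma, adjusted p = 0.0181), against 16.2% of all probe sets. Its deposited nonpolysomal signals were 275.9, 336.2 and 244.0 in the ife-1 cultures and 918.9, 361.3 and 830.2 in the wild-type cultures. The call ended on leaving out ife-1 culture 1, ife-1 culture 3, wild-type culture 1 or wild-type culture 3. Without wild-type culture 2, 14 msp genes and 7 ssp genes were lower in nonpolysomal RNA, against 17.8% of all probe sets. The 9 msp genes without that call were msp-19, msp-31, msp-53, msp-55, msp-59, msp-65, msp-76, msp-77 and msp-78, which all lie on chromosome IV but msp-31. All 9 are among the 11 brightest msp probe sets.

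The msp genes lie in 3 stretches in the order of genes in RefSeq (assembly WBcel235), 13 on chromosome II and 5 in each of 2 stretches on chromosome IV. On chromosome II the median log2(P/NP) was -0.24, 0.07 and -0.32 in the ife-1 cultures and 0.80, 0.83 and 0.72 in the wild-type cultures, and the median difference was -0.98. In the first stretch on chromosome IV (msp-19, msp-53, msp-55, msp-59 and msp-65) it was 0.08, 0.28 and 0.03 in the ife-1 cultures and 0.70, 1.11 and 0.74 in the wild-type cultures, a median difference of -0.77. In the second (msp-36, msp-38, msp-76, msp-77 and msp-78) it was -0.21, -0.09 and -0.18 in the ife-1 cultures and 0.41, 0.64 and 0.46 in the wild-type cultures, a median difference of -0.64. Every stretch had wild-type medians above its ife-1 medians in all cultures, and the differences among stretches were not tested. On chromosome IV, ssp-10 lies within the second stretch and had a difference of 0.12, and ssp-34 lies beyond its end and had a difference of -0.53.

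Some msp genes are direct neighbours among protein-coding genes. The association difference was -1.07 in msp-63 and -0.996 in msp-142, -0.94 in msp-31 and -1.002 in msp-152, and -1.03 in msp-33 and -0.79 in msp-32. The 10 genes with 1 shared protein entry come from chromosomes II and IV, and their association differences ran from -1.29 in msp-64 to -0.61 in msp-59. All ife-1 cultures lay below all wild-type cultures in 10 of these 10, against 12.4% of all probe sets. The combined level differences of the 10 genes ran from -1.40 in msp-142 to -0.34 in msp-65, a spread between probe sets whose signals may be shared.

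Genes that act with MSP were taken from 3 lists. Of 18 genes for fibrous body assembly and control of msp genes, 12 were measured, and none passed for association at an adjusted p under 0.05. Their median log2(P/NP) was -0.43, -0.48 and -0.25 in the ife-1 cultures and -0.32, 0.28 and -0.25 in the wild-type cultures. In combined level 1 of the 12 was higher, against 21.0% of all probe sets, and none was lower, against 18.5%. The higher gene was wee-1.3, a kinase, at 0.76 ± 0.18 (limma, adjusted p = 0.014). Without wild-type culture 2, 7 of the 12 were lower, against 22.1% of all probe sets. All 12 were lower in wild-type culture 2 than in wild-type cultures 1 and 3, as the members were. The share of all probe sets for that comparison is not given here. The lowest unadjusted p for association was 0.00668 for msd-2, itself a small protein with the MSP domain, whose polysomal share was 37.4, 39.5 and 47.7% in the ife-1 cultures and 52.6, 56.0 and 58.5% in the wild-type cultures. Its relative msd-4 had 52.8, 51.9 and 59.0% in the ife-1 cultures and 53.5, 53.8 and 57.5% in the wild-type cultures, which overlap.

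Of 20 genes for sperm activation and fertilization, 6 were measured and none passed for association. In combined level swm-1, a protease inhibitor that keeps male sperm from activating early, was lower at -0.72 ± 0.22 (limma, adjusted p = 0.0331). Of all probe sets 18.5% were lower at this threshold, so 1 gene of 6 lies near the background. The lowest unadjusted p for association was 0.00202 for try-5, the seminal-fluid protease that activates sperm, with an adjusted p of 0.0824 (limma). Its polysomal share was 61.8, 54.4 and 62.9% in the ife-1 cultures and 44.3, 42.9 and 44.2% in the wild-type cultures, higher in every ife-1 culture and so opposite to the msp genes.

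Of 17 genes for reception of the MSP signal by oocytes and sheath cells, 16 were measured, and none passed for association. In combined level 3 were higher in ife-1 worms and 3 lower at an adjusted p under 0.05 (limma), shares near those of all probe sets. Higher were vab-1, the Eph receptor that binds MSP, at 0.63 ± 0.20, and the gap junction genes inx-14 at 0.84 ± 0.17 and inx-22 at 1.46 ± 0.22. Lower were efn-2, an ephrin, at -1.64 ± 0.17, unc-43, a calcium-dependent kinase, at -0.72 ± 0.22, and kin-2, the regulatory subunit of protein kinase A, at -0.68 ± 0.17. All 8 oocyte markers were higher in combined level as well, with a median of 1.20, and the part of oocyte number in these values was not tested.

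The authors' deposited table gives, per probe set, the mean fold of the polysomal share and of the total signal, each as wild type over ife-1 and so in the opposite direction to the differences above. In the authors' deposited table the share fold of the 23 msp genes ran from 1.013 for msp-36 to 1.367 for msp-64 with a median of 1.185, all above 1. The share fold over all probe sets in the authors' deposited table had a median of 0.9753, with 5688 of 13333 above 1. That of the 7 ssp genes in the authors' deposited table ran from 0.8337 for ssp-37 to 1.188 for ssp-34 with a median of 0.959, and 1 was above 1. The total fold in the authors' deposited table was above 1 for all 30 members, from 1.457 for msp-78 to 3.407 for msp-142, against a median of 1.04 over all probe sets. Over all probe sets the total fold in the authors' deposited table was above 1 for 7038 of 13333.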

How the data were processed

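The authors deposited 1 linear signal intensity per probe set and array, per the file headers imported raw from the Affymetrix files. Only probe sets that the authors had selected on detection, labelled present in all replicates, were available. Neither the software behind the signals nor its scaling is given in the sources used here. Signals under 1 (5 values) were set to 1, 39 control probe sets were removed, and log2 signals of the remaining 13333 were quantile-normalized over 12 arrays. Association, log2(P/NP), and combined level, log2(P+NP), were computed per culture and tested with limma 3.58.1 (lmFit, eBayes; R 4.3.3), as were both fractions, with Benjamini-Hochberg adjustment over all 13333 probe sets and a threshold of 0.05. Residual spread was shared across the groups in each fit. The number of arrays limits the precision.

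Per the deposited outline, cultures were harvested separately and each growth set held both genotypes, so replicate numbers pair the cultures. Over all probe sets, deviations of same-numbered cultures correlated at -0.032, -0.063 and 0.023 for association and -0.11, -0.05 and 0.13 for combined level. The fit without the growth set was the main one, and the block was an alternative.

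Mean fold ratios were taken from the authors' deposited table, per the file headers wild type over ife-1. Detection calls were counted per group, and 36 per-sample columns of the deposited workbook were not used. Members and lists were chosen with earlier results of these data known. Values per culture were given for the brightest and dimmest member of each family, the members at both ends of each change, members called between genotypes and msp genes not called polysomal in wild type. The fits were tested on simulated data.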

Additional observations from a re-analysis of the deposited data

How the results depend on the processing

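Counts of members called at an adjusted p under 0.05 (limma) were 2 for association in ife-1, 21 in wild type, 0 for association change, 1 for combined level, 6 for polysomal and 1 for nonpolysomal RNA. Association in ife-1 gave 1 on deposited signals and with bacterial controls, 11 with median scaling, 6 with quantile normalization within fractions, 4 on brighter probe sets and 0 with fractions unpaired. Of these, 10 of the 11 and 5 of the 6 were msp genes called nonpolysomal. Association in wild type gave 7 on deposited signals, 5 with median scaling (1 of them, an ssp gene, nonpolysomal), 10 within fractions and 3 unpaired. Association change gave 1 with bacterial controls, 13 with the offset, 15 on brighter and 10 on always-present probe sets. Combined level gave 0 with bacterial controls and 0 with the replicate block. Polysomal RNA gave 2 on deposited signals, 3 with median scaling, 3 within fractions, 0 with bacterial controls, 11 with the offset, 12 on brighter and 11 on always-present probe sets, 12 with a variance trend and 1 with the replicate block. Nonpolysomal RNA gave 0 with bacterial controls and still 1 with the replicate block, and association change 0 with the replicate block, which changed no other call. The median association change over the members, -0.73, became -0.46 on deposited signals, -0.52 with median scaling and -1.04 with bacterial controls, where all probe sets shifted to -0.47. The causes were not tested.

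Leaving out cultures gave 0 to 4 for association in ife-1, 16 to 22 in wild type, 0 throughout for association change, 0 to 29 for combined level, 0 to 30 for polysomal and 0 to 22 for nonpolysomal RNA. For combined level and both fractions the high ends came from leaving out wild-type culture 2 or growth set 2, and the 22 in wild type from leaving out ife-1 culture 2. The median association change stayed between -0.82 and -0.62 and the median combined change between -1.44 and -0.44.

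With 3 cultures a genotype, differences under the spread between cultures were not detectable. The signals of msp genes with near-identical sequence cannot be told apart.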

Other observations

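Probe sets outside the membership rule gave further values of the same families. Of 41 probe sets that name an msp or ssp gene, 10 name several genes. Several of these also name members, such as msp-55 and msp-65, so their values are not separate from those above. In 7 of the 10 all ife-1 cultures lay below all wild-type cultures in log2(P/NP), against 12.4% of all probe sets. The median difference of the 10 was -0.61. Among them the probe set of ssp-9 and ssp-11 differed by -0.08 between ife-1 and wild type (limma, adjusted p = 0.882) and that of ssp-32 and ssp-36 by 0.12 (limma, adjusted p = 0.791). A further 5 probe sets are described as major sperm protein under other symbols. For 4 of these 5 all ife-1 cultures lay below all wild-type cultures, against the same 12.4% of all probe sets. The lowest of these differences was that of ZK1248.17, with log2(P/NP) of -0.79, -0.34 and -0.58 in the ife-1 cultures and 0.99, 0.36 and -0.09 in the wild-type cultures (limma, adjusted p = 0.127).

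A second probe set of msp-32 is described as its reverse complement, and it was called present on all 12 arrays with deposited signals of 76.3 to 217.8. Its log2(P/NP) was -0.29, -1.23 and 0.16 in the ife-1 cultures and -0.84, 0.57 and -0.92 in the wild-type cultures, which overlap. The difference in combined level was 0.06 (limma, adjusted p = 0.833), where the msp-32 probe set of the sense strand differed by -1.13 (limma, adjusted p = 0.106).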
